A study of Mus musculus with 6 samples.

Results

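The genes that drive the G1 phase of the cell cycle were followed in mouse ovarian granulosa cells (GCs) after cyclophosphamide (CTX), a DNA-alkylating chemotherapeutic. They comprised the D-type cyclins *Ccnd1*, *Ccnd2* and *Ccnd3*, the E-type cyclins *Ccne1* and *Ccne2*, the kinases *Cdk2*, *Cdk4* and *Cdk6*, and the pocket proteins *Rb1* and *Rbl1*. These 10 genes were taken by name from the 54532 genes of the expression table, and all 10 were found there once. After CTX treatment, *Rb1* mRNA was 1.42-fold higher than in the PBS group and was the only one of the 9 genes tested to pass. Its call was lost when any 1 PBS sample or CTX replicate 3 was left out. *Cdk6* and *Ccnd2* had their CTX samples all below the PBS samples (14.1% of all genes tested), without passing the test. *Ccne2* had them all above (15.0% of all genes tested) and did not pass either.

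RNA-seq was performed on GCs of female ICR mice that were 3 weeks old and had been primed with 5 IU of PMSG, a gonadotropin that stimulates follicle growth, for 22 h. The mice were then injected with PBS (the control group) or with CTX at 120 mg/kg, and GCs were isolated after a further 6 h. Both groups had 3 samples, each a pool of GCs from 3 mice. No genetic alteration is named for either group, and PMSG was given to both.

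D-type cyclins bind CDK4 and CDK6 when growth signals arrive, and E-type cyclins bind CDK2 as the cell approaches S phase. Both kinds of complex phosphorylate the pocket proteins, of which RB1 is the founding member, and phosphorylation releases the E2F transcription factors that switch on the genes of DNA replication. Cyclin D2 is the D-type cyclin that GCs induce in response to follicle-stimulating hormone, and mice without it have GCs that proliferate poorly.

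The levels are FPKM, fragments per kilobase of gene length scaled to depth, so that levels of different genes can be roughly set side by side. The length is that of all annotated exons of a gene together, which can exceed that of the transcripts expressed. For *Cdk2* it is 6219 bases of a gene that spans 7093. Which of 2 genes has the higher level thus depends on these lengths, while the change of 1 gene between groups does not. Reads on genes came to between 16005869 and 18455011 per sample, and for a gene 1 kb long 3 reads amounted to 0.164 to 0.185 FPKM. Genes with a mean of at least 0.5 FPKM over the 6 samples were tested with limma on log2(FPKM + 0.1), which left 14463 genes and 9 of the 10 described here. The added 0.1 makes fold changes of weakly expressed genes smaller than they are. The sample CTX replicate 2 stood apart from the others, at 74.7 on the first principal component, which held 46.8% of the variance, against -26.6 to 13.2 for the other samples. All 12 granulosa cell markers were detected, with *Inha* between 8556 and 10402 FPKM, and in 8 of the 12 the CTX samples were all below the PBS samples (14.1% of all genes tested) while in 1, *Amh*, they were all above. *Cyp19a1*, the aromatase of estradiol synthesis, was at 59.2 to 62.4 FPKM in the PBS samples and at 47.6, 6.61 and 32.5 FPKM in CTX replicates 1, 2 and 3. *Amh*, the anti-Müllerian hormone, was at 48.4 to 51.1 FPKM with PBS and at 54.3, 179 and 85.5 FPKM with CTX. Of the 12 markers, 9 had a log2 fold change below 0 and 3 above. The part of these differences in the results below was not tested.

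Of the 9 G1 genes tested, 1 had an adjusted p below 0.05 (Benjamini-Hochberg over all genes tested), where 1.76% of all genes tested did. None of the 9 also exceeded a 2-fold change, the threshold for a differentially expressed gene (DEG) in the study's methods, which 0.961% of all genes tested passed. That share is from the limma test used here, and the study's own DEG count comes from another comparison. An unadjusted p below 0.05 was found for 4 of the 9, and for 19.6% of all genes. The CTX and PBS samples did not overlap for 4 of the 9, compared with 29.2% of all genes. These 4 were *Ccne2* and *Rb1* with the CTX samples above (15.0% of all genes) and *Ccnd2* and *Cdk6* with them below (14.1%). The median log2 fold change of the 9 was 0.08, and that of all genes tested was -0.01.

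**Figure D1:**
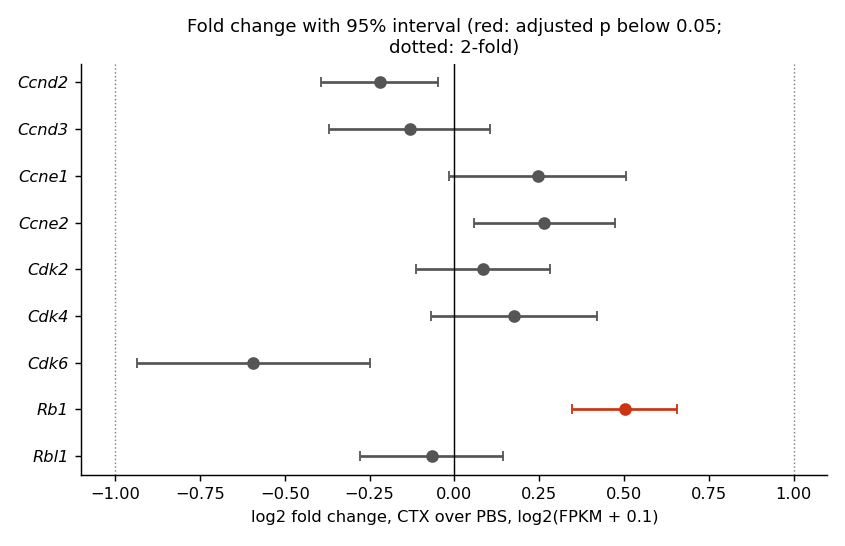
Log2 fold change of CTX over PBS on the log2(FPKM + 0.1) scale (horizontal axis) for the 9 tested genes (vertical axis). Points are the limma estimates, bars are 95% intervals, dotted lines mark a 2-fold change, and *Rb1* alone, at 0.50, is coloured as past an adjusted p of 0.05.

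To show the promoters of these genes, 300-base windows around the transcription starts given by RefSeq (build GRCm38.p6) were searched on both strands for the E2F motif (TTTCCCGC, TTTCGCGC, TTTGCCGC or TTTGGCGC) and the GC box (GGGCGG), which is bound by SP1. A window was given for 6 of the 10 genes, namely *Rbl1*, *Cdk6*, *Ccne1*, *Cdk4*, *Cdk2* and *Ccnd3*. An E2F motif was present in 2 of the 6, *Rbl1* and *Cdk2*, and in 2.6% of the 27025 genes with a window. A GC box was present in 5 of the 6, all but *Cdk6*, and in 38.2% of genes, and no E2F match shared bases with a GC box. The stretches that carry the E2F matches, and one of *Ccne1* with 3 GC boxes, are printed 5′ to 3′ on the strand of the gene, with matches to either motif in capitals. They lie at chr2:157204535-157204594 for *Rbl1*, at chr10:128705142-128705201 for *Cdk2* and at chr7:38107531-38107605 for *Ccne1*, all on the minus strand.
Rbl1: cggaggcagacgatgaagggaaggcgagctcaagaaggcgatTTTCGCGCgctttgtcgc
Cdk2: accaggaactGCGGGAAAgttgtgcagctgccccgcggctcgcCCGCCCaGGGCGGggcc
Ccne1: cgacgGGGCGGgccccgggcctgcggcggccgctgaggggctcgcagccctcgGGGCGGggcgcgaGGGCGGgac
The capitals in *Rbl1* are an E2F match that starts at position -18 from the transcription start. In *Cdk2*, the first capitals are an E2F match on the opposite strand at position -140, followed by a GC box on each strand at -107 and -100. The capitals in *Ccne1* are 3 GC boxes at -110, -62 and -49. These matches are a description of the letters and not of bound factors.

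Among the D-type cyclins, *Ccnd2* was the main transcript of these GCs, with 91.9% ± 0.521 of the summed FPKM of the 3 genes in the PBS samples and 91.0% ± 1.39 in the CTX samples (mean ± SD, n = 3 each). *Ccnd2* (ENSMUSG00000000184, chr6:127125162-127152193, minus strand, GRCm38) was at 43.6, 41.9 and 40.6 FPKM in PBS replicates 1, 2 and 3, and at 33.8, 38.4 and 36.2 FPKM in CTX replicates 1, 2 and 3. Every CTX sample was below every PBS sample. The mean was 42.1 ± 1.47 FPKM in the PBS group and 36.1 ± 2.33 FPKM in the CTX group, a log2 fold change of -0.22 (SE 0.071, 95% interval -0.39 to -0.05, limma adjusted p = 0.184), which did not pass the test. In bulk samples, fewer GCs expressing a gene and less of its RNA in each GC cannot be told apart. Between 5756 and 7308 reads stood behind each *Ccnd2* value.

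*Ccnd3* (ENSMUSG00000034165, chr17:47505051-47599691, plus strand), the D-type cyclin best known from lymphocytes, was at 3.47, 3.11 and 3.53 FPKM in the PBS samples and at 3.18, 2.89 and 3.13 FPKM in the CTX samples, and the groups overlapped. Its log2 fold change was -0.13 (SE 0.099, 95% interval -0.37 to 0.11, limma adjusted p = 0.473). *Ccnd1* (ENSMUSG00000070348, chr7:144929931-144939925, minus strand), which is induced by mitogens in many tissues, was the lowest of the 10 genes, at 0.274, 0.371 and 0.328 FPKM with PBS and 0.644, 0.215 and 0.616 FPKM with CTX. These values rest on 23, 32 and 25 reads and on 55, 18 and 52 reads. CTX replicates 1 and 3 were above every PBS sample and CTX replicate 2 was below every one. At a mean of 0.408 FPKM over the 6 samples *Ccnd1* was not tested, and when the filter on low values was omitted its log2 fold change was 0.39 (limma adjusted p = 0.678). Of the exon bases of *Ccnd1*, 23.4% are also exon bases of *Oraov1* on the opposite strand, and since the strandedness of the libraries is not given in the sources used here, reads of the 2 genes there cannot be told apart. The summed level of the 3 D-type cyclins was 45.8 ± 1.44 FPKM with PBS and 39.7 ± 1.98 FPKM with CTX (n = 3 each).

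Both E-type cyclins were expressed. *Ccne1* (ENSMUSG00000002068, chr7:38097984-38107534, minus strand) was at 4.55, 4.71 and 5.47 FPKM in the PBS samples and at 6.22, 5.29 and 6.00 FPKM in the CTX samples. The groups overlapped because CTX replicate 2 was below PBS replicate 3. Its mean was 4.91 ± 0.492 FPKM with PBS and 5.84 ± 0.483 FPKM with CTX, with a log2 fold change of 0.25 (SE 0.108, 95% interval -0.02 to 0.51, limma adjusted p = 0.274). *Ccne2* (ENSMUSG00000028212, chr4:11191351-11204779, plus strand) was at 7.11, 6.20 and 6.27 FPKM with PBS and at 8.04, 7.42 and 8.10 FPKM with CTX, and all CTX samples were above all PBS samples. The log2 fold change of *Ccne2* was 0.26 (SE 0.086, 95% interval 0.06 to 0.47, limma adjusted p = 0.185), which did not pass the test. Exons of *Ints8* on the opposite strand share 17.4% of the exon bases of *Ccne2*, and *Ints8* itself had a log2 fold change of 0.04. The E-type cyclins summed to 11.4 ± 0.461 FPKM in the PBS group and 13.7 ± 0.848 FPKM in the CTX group. CTX replicate 2 had the lowest value of the CTX samples for *Ccne1* and for *Ccne2*, and without that sample their log2 fold changes were 0.31 (limma adjusted p = 0.178) and 0.30 (limma adjusted p = 0.14).

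**Figure D2:**
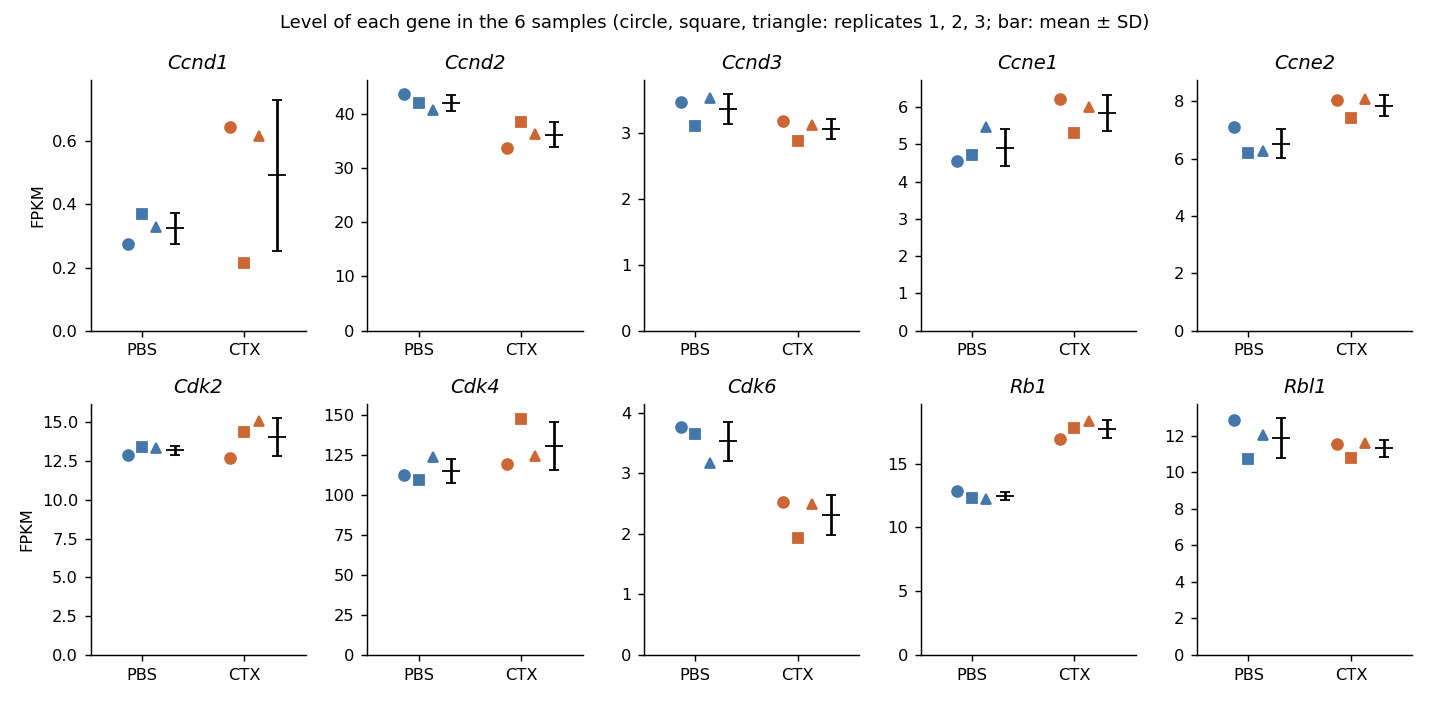
FPKM (vertical axes, each from 0) of the 10 genes in the 3 PBS (blue) and 3 CTX (orange) samples, with circles, squares and triangles for replicates 1, 2 and 3 and bars for the mean ± SD. The groups are apart for *Ccnd2*, *Ccne2*, *Cdk6* and *Rb1*, and CTX replicate 2 is the lowest CTX sample for *Ccnd1*, *Ccnd3*, *Ccne1*, *Ccne2*, *Cdk6* and *Rbl1*.

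Of the kinase partners of the D-type cyclins, *Cdk6* had a lower and *Cdk4* a higher mean after CTX treatment, and neither passed the test. *Cdk6* (ENSMUSG00000040274, chr5:3341485-3531008, plus strand) was at 3.77, 3.65 and 3.16 FPKM in the PBS samples and at 2.52, 1.93 and 2.49 FPKM in the CTX samples, so that every CTX sample was below every PBS sample. Its mean was 3.53 ± 0.322 FPKM with PBS and 2.31 ± 0.334 FPKM with CTX. The log2 fold change of -0.59 (SE 0.142, 95% interval -0.94 to -0.25, unadjusted p = 0.00516, limma adjusted p = 0.114) was the one furthest from 0 among the 9 tested genes. Without CTX replicate 2, the sample with the lowest *Cdk6* level, it was -0.47 (limma adjusted p = 0.0939).

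*Cdk4* (ENSMUSG00000006728, chr10:127063534-127067920, plus strand) had the highest FPKM of the 10 genes, at 112, 110 and 124 with PBS and 120, 148 and 125 with CTX. CTX replicate 1 was below PBS replicate 3, so the groups overlapped, and the log2 fold change was 0.18 (SE 0.102, 95% interval -0.07 to 0.42, limma adjusted p = 0.373). Of its exon bases, 19.7% lie in exons of *Tspan31* on the opposite strand, which had a log2 fold change of -0.17. *Cdk2* (ENSMUSG00000025358, chr10:128697939-128705031, minus strand), the kinase of the E-type cyclins, was at 12.9, 13.4 and 13.4 FPKM with PBS and at 12.7, 14.4 and 15.1 FPKM with CTX, and its groups overlapped. Its log2 fold change was 0.08 (SE 0.082, 95% interval -0.11 to 0.28, limma adjusted p = 0.579).

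The pocket proteins hold E2F factors in check until they are phosphorylated. *Rb1* (ENSMUSG00000022105, chr14:73183673-73325822, minus strand) was at 12.9, 12.3 and 12.2 FPKM in the PBS samples and at 17.0, 17.8 and 18.4 FPKM in the CTX samples. All CTX samples were above all PBS samples, and the gap was wider than the spread within either group, with means of 12.5 ± 0.349 and 17.7 ± 0.714 FPKM. *Rb1* rose 1.42-fold (95% interval 1.27 to 1.58), a log2 fold change of 0.50 (SE 0.064, unadjusted p = 1.7e-04, limma adjusted p = 0.0203). With 1 sample left out, the log2 fold change stayed between 0.48 and 0.53, but the adjusted p was 0.0961, 0.131 and 0.106 without PBS replicates 1, 2 and 3 and 0.0897 without CTX replicate 3, so the call was lost there. Without CTX replicates 1 and 2, it was 0.0279 and 0.0207. In those 4 fits 70 to 104 of all genes passed, against 254 with all 6 samples.

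The *Rb1* gene overlaps 2 genes on the opposite strand. *Rcbtb2* shares 8.11% of the exon bases of *Rb1* and *Lpar6*, a receptor gene within it, shares 6.78%. *Lpar6* was at 2.94, 2.93 and 2.57 FPKM with PBS and at 3.48, 5.25 and 4.18 FPKM with CTX (log2 fold change 0.58, limma adjusted p = 0.149), so its CTX samples were above its PBS samples too. *Rcbtb2* was at 7.11 FPKM on average with PBS and 8.25 FPKM with CTX (log2 fold change 0.19, limma adjusted p = 0.511). How far reads of these genes enter the *Rb1* values was not tested.

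*Rbl1* (ENSMUSG00000027641, chr2:157145893-157204534, minus strand), which encodes the pocket protein p107, was at 12.9, 10.7 and 12.0 FPKM with PBS and at 11.6, 10.8 and 11.6 FPKM with CTX. The CTX samples lay inside the range of the PBS samples, and the log2 fold change was -0.07 (SE 0.087, 95% interval -0.28 to 0.14, limma adjusted p = 0.682). The interval of *Rbl1* did not reach that of *Rb1*. The third pocket protein gene, *Rbl2*, was at 4.24 ± 0.237 FPKM with PBS and 4.50 ± 0.0751 FPKM with CTX (log2 fold change 0.08, limma adjusted p = 0.579). *Rb1* made up 43.6% ± 1.71 of the summed FPKM of the 3 pocket protein genes in the PBS group and 52.8% ± 1.25 in the CTX group.

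The order of levels in FPKM, which depends on the gene lengths used, differed between the groups at 2 places. In the PBS samples it ran from *Cdk4* to *Ccnd2*, *Cdk2*, *Rb1*, *Rbl1*, *Ccne2*, *Ccne1*, *Cdk6*, *Ccnd3* and *Ccnd1*. The ranges of neighbours were apart except for *Rb1* with *Rbl1* and *Cdk6* with *Ccnd3*. In the CTX samples *Rb1* stood above *Cdk2*, and *Ccnd3* above *Cdk6*, and the ranges of all neighbours were apart.

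To compare the genes independently of the scaling between samples, 6 ratios of FPKM were taken within each sample. With 3 samples against 3, the two-sided exact permutation test cannot give a p below 0.1. The ratio of *Cdk4* to *Cdk6* was 29.8, 30.0 and 39.2 with PBS and 47.4, 76.5 and 50.1 with CTX. It was thus higher in every CTX sample, by 1.73-fold on average (exact permutation p = 0.1, adjusted over the 6 ratios 0.3). *Rb1* was about level with *Rbl1* in the PBS samples, at ratios of 0.998, 1.15 and 1.01, and above it in the CTX samples, at 1.47, 1.65 and 1.59 (1.49-fold, exact permutation p = 0.1, adjusted 0.3). For the other 4 ratios the groups overlapped. The exact permutation p was 0.4 for *Ccnd2* to *Ccnd1*, 0.5 for *Ccnd2* to *Ccnd3*, 0.9 for *Ccne1* to *Ccne2* and 0.4 for *Cdk4* to *Cdk2*. The ratio of *Ccnd2* to *Ccnd1* was 113 to 159 with PBS and 52.4, 178 and 58.8 with CTX, where CTX replicate 2 was the high one.

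**Figure D3:**
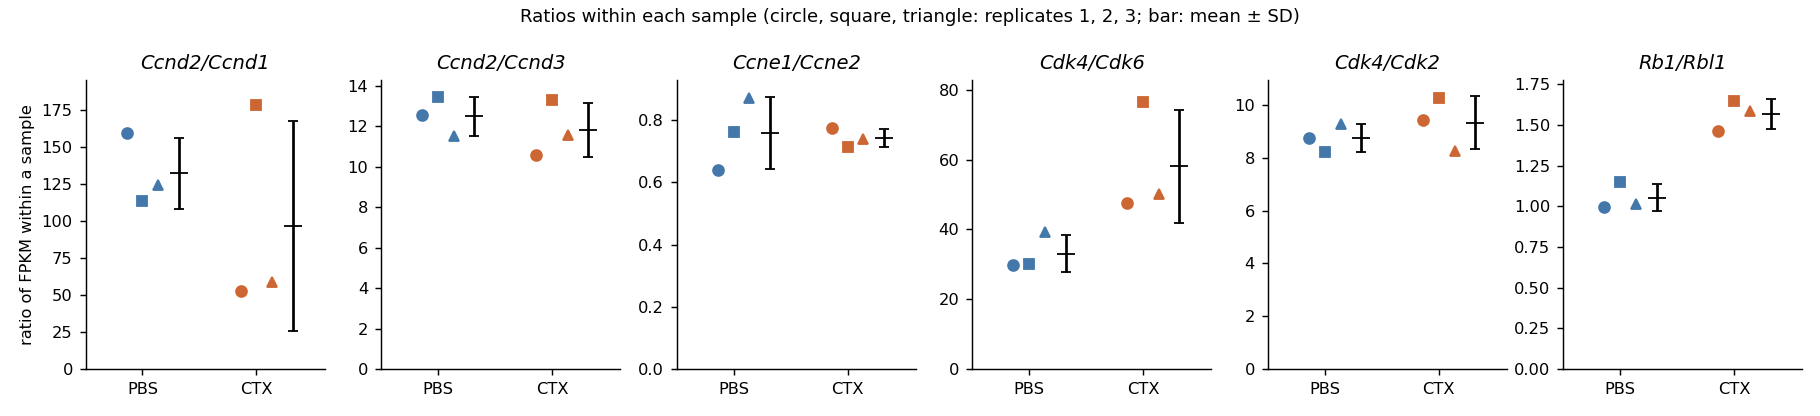
Ratios of FPKM within each sample (vertical axes, each from 0) for 6 pairs of genes in the PBS (blue) and CTX (orange) samples, with circles, squares and triangles for replicates 1, 2 and 3 and bars for the mean ± SD. The CTX samples are all above the PBS samples for *Cdk4* to *Cdk6* (47.4 to 76.5 against 29.8 to 39.2) and for *Rb1* to *Rbl1* (1.47 to 1.65 against 0.998 to 1.15).

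The pattern of *Ccnd2* over the 6 samples was most like that of *Rptor*, *Msantd2* and *Syvn1*, of 8055 genes with a mean of at least 5 FPKM. The root mean square difference of their centred log2 values from those of *Ccnd2* was 0.0268, 0.0301 and 0.0340. This is a description of these 6 samples.

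The inhibitors of the G1 kinases were measured next. *Cdkn1a*, which encodes the p53-induced inhibitor p21 of CDK2 complexes, was at 9.43, 8.86 and 8.90 FPKM in the PBS samples and at 66.4, 42.7 and 66.8 FPKM in the CTX samples. It rose, with a log2 fold change of 2.65 (SE 0.179, limma adjusted p = 0.0019), and was the only 1 of the 6 tested inhibitor genes to pass the test (1.76% of all genes tested). The ratio of *Cdkn1a* to *Cdk2* within a sample was 0.687 ± 0.0399 in the PBS group and 4.22 ± 1.15 in the CTX group. In FPKM, the inhibitor was thus below the kinase in all 3 PBS samples and above it in all 3 CTX samples. The lowest of the CTX ratios, 2.97, was that of CTX replicate 2. The median of the 6 inhibitor genes was -0.18 on the log2 scale, with 1 higher and 5 lower.

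The next list held genes that activate, restrain or partner cell cycle kinases, in G1 and in later phases. Of these, 0 of 14 passed the adjusted test with limma and 8 had an unadjusted p below 0.05 (19.6% of all genes tested). In this group the CTX samples were all above the PBS samples for 4 genes (15.0% of all genes tested) and all below for 6 (14.1%). The 4 were *Cdc25a*, *Cdc37*, *Mnat1* and *Wee1*, an inhibitory kinase. The 6 were *Ccna2*, *Ccnb1*, *Ccnb2*, *Cdk1*, *Cdc25b* and *Cdc25c*, which act mainly in S, G2 and M phase. The most abundant were *Cks2* and *Cks1b*, small kinase-binding subunits. *Cks2* was at 91.1 ± 1.77 FPKM with PBS and 82.4 ± 14.4 FPKM with CTX, and *Cks1b* at 54.9 ± 8.19 and 62.0 ± 1.57 FPKM. Of the 12 genes tested for the ubiquitin-dependent turnover of G1 cyclins, 0 passed the adjusted test with limma and 2 had an unadjusted p below 0.05 (19.6% of all genes tested). The ubiquitin ligase subunits *Skp1a* (84.6 ± 4.33 and 92.7 ± 7.65 FPKM with PBS and CTX) and *Cul1* (31.6 ± 1.24 and 34.6 ± 2.89 FPKM) were the most abundant of them.

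Downstream of the pocket proteins, 17 genes of E2F factors, their partners and the DREAM complex were tested. None had an adjusted p below 0.05 with limma, 6 had an unadjusted p below 0.05 (19.6% of all genes tested), and 15 had a log2 fold change above 0 (48.6% of all genes tested). *Tfdp1*, the dimerization partner of the E2F factors, was at 34.8 ± 1.06 FPKM with PBS and 41.2 ± 0.805 FPKM with CTX (limma adjusted p = 0.112), and *Rbbp4*, a histone-binding subunit, at 26.6 ± 0.815 and 29.1 ± 0.290 FPKM (limma adjusted p = 0.277). The activator *E2f1*, chosen after its values were seen, was at 14.3, 14.7 and 15.7 FPKM with PBS and at 19.2, 19.4 and 21.0 FPKM with CTX. Its log2 fold change was 0.41 (limma adjusted p = 0.0509), just outside the threshold.

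The replication genes that E2F factors induce for S phase were mostly higher after CTX treatment, and the genes of G2 and M phase were all lower. Of 28 S phase genes, 26 had a log2 fold change above 0, and in 18 the CTX samples were all above the PBS samples, compared with 48.6% and 15.0% of all genes tested. Their median log2 fold change was 0.28, 16 had an unadjusted p below 0.05 (19.6% of all genes), and 1 passed the adjusted test (1.76% of all genes). This was *Cdt1*, a factor that licenses replication origins, at 12.8, 13.8 and 14.3 FPKM with PBS and 18.8, 21.1 and 19.6 FPKM with CTX (log2 fold change 0.54, SE 0.076, limma adjusted p = 0.0263). Its call was lost without PBS replicate 1, 2 or 3 (limma adjusted p = 0.136, 0.149 and 0.105) and without CTX replicate 3 (0.104). An E2F motif as spelled above was found in 9 of the 24 S phase genes with a promoter window (37.5%). It was in 0 of the 15 G2 and M phase genes with a window and in 2.6% of all genes with one. A GC box was found in 17 of the 24 (70.8%) and in 12 of the 15 (80%), against 38.2% of all genes. The S phase genes were listed as E2F targets, so their share with an E2F motif follows in part from that choice. It is a description of the list, and a part of E2F factors in the higher levels was not tested.

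Of 18 genes of G2 and M phase, 18 had a log2 fold change below 0 (51.4% of all genes tested), in 11 the CTX samples were all below the PBS samples (14.1% of all genes), 8 had an unadjusted p below 0.05 (19.6%), and 0 passed the adjusted test with limma. Their median was -0.37. *Cdc20*, an activator of the anaphase-promoting complex, was at 70.9, 70.4 and 73.7 FPKM with PBS and at 69.9, 53.3 and 70.2 FPKM with CTX. *Top2a*, the topoisomerase of mitotic chromosomes, was at 46.7 ± 1.39 FPKM with PBS and 40.6 ± 8.90 FPKM with CTX. CTX replicate 2 was the low sample for both. The list median relative to the PBS mean was -0.16, -0.78 and -0.22 in CTX replicates 1, 2 and 3, and the median fold change without replicate 2 was -0.19. For the S phase list the medians per CTX sample were 0.23, 0.34 and 0.30, and 0.26 was the median without replicate 2. Left with 5 samples, 23 of the 28 S phase genes had both CTX samples above the PBS samples, as did 19.3% of all genes tested. Of the 18 G2 and M phase genes, 11 had both CTX samples below, as did 19.3% of all genes tested.

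**Figure D4:**
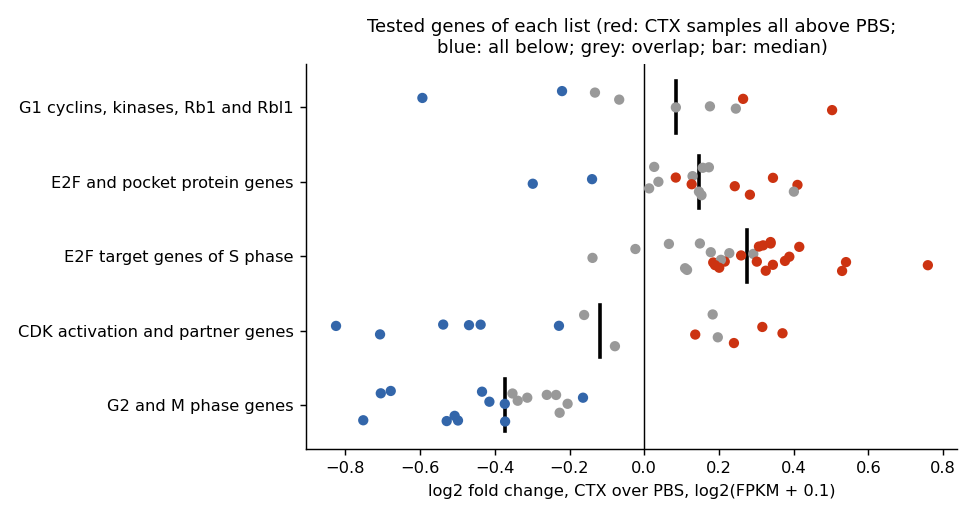
Log2 fold change of CTX over PBS on the log2(FPKM + 0.1) scale (horizontal axis) for each tested gene of 5 gene lists (vertical axis), red where the CTX samples are all above the PBS samples, blue where all are below and grey where they overlap, with a black bar at the list median. The S phase list lies mostly to the right of 0 (median 0.28) and the G2 and M phase list wholly to the left (median -0.37).

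Upstream of the D-type cyclins, 23 genes of hormone receptors, growth factor signalling and transcription factors were tested, and 3 passed (1.76% of all genes tested). An unadjusted p below 0.05 was found for 8 of the 23 (19.6% of all genes). The CTX samples were all above the PBS samples for 6 (15.0%) and all below for 5 (14.1%). *Fos* and *Jun*, the subunits of the AP-1 factor, rose, with log2 fold changes of 1.85 (limma adjusted p = 0.00104) and 1.28 (limma adjusted p = 0.00518), from 384 ± 13.7 to 1385 ± 119 FPKM and from 438 ± 6.09 to 1070 ± 139 FPKM. Without PBS replicate 1 the limma adjusted p of *Jun* was 0.0519. *Mycn*, a MYC family factor, fell, from 21.0, 21.3 and 22.3 FPKM with PBS to 13.0, 13.6 and 16.4 FPKM with CTX (log2 fold change -0.59, limma adjusted p = 0.0489). The call of *Mycn* was borderline and was lost without any 1 sample but CTX replicate 3 (limma adjusted p = 0.0531 to 0.221), while the log2 fold change stayed between -0.69 and -0.52. The related gene *Myc* went the other way, from 32.8, 31.3 and 30.7 FPKM with PBS to 53.1, 100 and 72.6 FPKM with CTX. All CTX samples of *Myc* were above all PBS samples, but it did not pass the test (limma adjusted p = 0.058). The receptor for follicle-stimulating hormone, *Fshr*, was at 92.2, 88.5 and 94.5 FPKM with PBS and at 80.5, 42.8 and 69.9 FPKM with CTX (log2 fold change -0.56, limma adjusted p = 0.248). The list median was 0.04.

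Markers of other cells differed between samples as well. The summed FPKM of 9 immune markers was 21.5 to 23.0 with PBS and 23.8 to 63.2 with CTX, with CTX replicate 2 the highest. *Ptprc*, the common leukocyte gene, was too low to be tested, at 0.0640 to 0.0983 FPKM in all 6 samples. Of the 6 immune markers tested, 4 had a log2 fold change above 0. In 3 the CTX samples were all above the PBS samples (15.0% of all genes tested), among them *Lyz2*. It was at 13.1, 13.7 and 14.3 FPKM with PBS and at 22.9, 45.8 and 14.7 FPKM with CTX (limma adjusted p = 0.276). The 6 theca markers summed to 39.5 to 41.3 FPKM with PBS and 13.6 to 38.4 FPKM with CTX, which was mostly *Cyp17a1* (32.7 ± 1.81 and 14.4 ± 14.3 FPKM), and the other 3 tested were higher with CTX (list median 0.34). The 7 stromal and smooth muscle markers summed to 21.2 to 22.5 and 27.1 to 41.2 FPKM, with 5 of 6 tested higher. The 7 endothelial markers summed to 7.39 to 7.88 and 3.17 to 7.12 FPKM (1 of 3 tested higher), the 9 oocyte markers to 36.0 to 76.7 and 51.3 to 91.4 FPKM (8 of 8 higher), and the 6 red blood cell markers to 319 to 454 and 138 to 497 FPKM (5 of 5 lower). The groups overlapped for all of these oocyte and red blood cell genes. The low oocyte sum was PBS replicate 1 (36.0, against 76.7 and 72.1 FPKM in PBS replicates 2 and 3). The low red blood cell sum was CTX replicate 2 (138, against 359 and 497 FPKM in CTX replicates 1 and 3). Of the genes tested in these lists, 1 passed, the smooth muscle actin gene *Acta2* (log2 fold change 1.08, limma adjusted p = 0.0166), whose call was lost without any 1 PBS replicate (0.0855 to 0.102) and without CTX replicate 3 (0.0805). Their part in the G1 gene results was not tested.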

How the data were processed

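RNA was prepared with the Rneasy mini plus kit and libraries with the NEBNext Ultra RNA kit. The submitters' processing notes name CASAVA 1.8, fastp, HISAT2 2.0.5, featureCounts 1.5.0-p3 and DESeq2 1.20.0 and the mouse genome mm10 (GRCm38), without saying which step used which. The strandedness of the libraries and its setting in counting are not given in the sources used here. The authors deposited FPKM values for each of 6 samples, scaled between samples by them, with gene identifiers, coordinates and lengths. The columns of the authors' comparison (group means of normalized reads, log2 fold change, p-value and adjusted p-value) were not used. The deposited lengths equal the summed exon length of all 10 genes in GENCODE M21. All non-zero values (100%), multiplied by length, gave whole read numbers (tolerance 0.001), so reads could be rebuilt.

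Genes with a mean of at least 0.5 FPKM were compared on log2(FPKM + 0.1) with limma 3.58.1 (lmFit, eBayes with trend, R 4.3.3), with p-values adjusted by the Benjamini-Hochberg method over 14463 genes. The scripts were tested on simulated data. Samples were grouped by their labels. GCs of different mice are in each sample, so the replicate number was not used as a block. SciPy 1.17.1 gave the permutation tests, matplotlib 3.10.9 the figures and pandas 2.3.3 on Python 3.11.15 the promoter search, and E2F and GC box motifs were matched exactly. Read floors cover counting error only.

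The G1 genes and the gene lists were chosen with earlier results of these data known. All G1 genes were named, and of each pathway list the genes past an adjusted p of 0.05 (at most 4 per direction) or, with none, the 2 most abundant, besides *Cdkn1a*. *Fshr*, *Myc*, *Rbl2*, *E2f1*, the overlapping genes and the marker genes named were added after their values were seen. So were the names of the kinase regulators and partners whose groups do not overlap. The count of groups that do not overlap without CTX replicate 2 was added in the same way. For likeness to *Ccnd2*, the 3 nearest genes with a mean of at least 5 FPKM were taken. Alternatives were pseudocounts of 1 and 0.01, no filter, a filter of 5 FPKM, rescaling by median-of-ratios or quantiles, a block on the replicate number, arrayWeights, eBayes without trend, voom on the rebuilt reads, protein-coding genes only, each sample left out, and for ratios FPKM + 0.1 and pairing by number.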

Additional observations from a re-analysis of the deposited data

How the results depend on the processing

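None of the G1 genes passed an adjusted p of 0.05 together with a 2-fold change in any setting, and no log2 fold change of the 9 tested genes changed sign. The number past an adjusted p of 0.05 was 1 in the reported analysis and 6 with arrayWeights, where CTX replicate 3 had a weight of 16.6, CTX replicates 1 and 2 had 0.304 and 0.163 and the PBS samples 0.696 to 1.6, and 39.8% of all genes passed. With 1 sample left out it was 0 to 1. *Rb1* passed in 12 of 17 alternatives. The replicate numbers did not pair the samples: the correlations of same-numbered deviations were 0.0556, 0.0242 and 0.00581. With the replicate number as a block, 0 of the 9 passed (*Rb1* limma adjusted p = 0.140) and 53 genes passed in all. Of the genes in the pathway lists, 5 passed in the reported analysis. The count was 2 with the replicate block, 72 with arrayWeights, 3 without trend, 9 with voom on rebuilt reads (276 genes in all), 8 among protein-coding genes only, and 2 to 14 with 1 sample left out, 14 being without CTX replicate 2. The log2 ratio of *Ccne1* to *Ccne2*, with a difference of -0.02 in the reported analysis, ran from -0.13 to 0.09 with 1 sample left out and turned positive without PBS replicate 3 (0.0891) and without CTX replicate 2 (0.0099). The cause was not tested. *Cdt1* lost its call with the replicate block (limma adjusted p = 0.123), without trend (0.0571), and without any 1 PBS replicate or CTX replicate 3. *Mycn* also lost its call with a pseudocount of 0.01 (0.0506), no filter (0.0747), median-of-ratios rescaling (0.0532), no trend (0.0894) and the replicate block (0.133), *Jun* with the block (0.0769) and *Acta2* with the block (0.0966).

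With 3 samples per group, changes of the size seen for *Ccnd2*, *Ccne1*, *Ccne2* and *Cdk6* did not pass the adjusted test here, and the intervals give the sizes that were compatible with the samples. *Ccnd1* rests on 18 to 55 reads per sample, and its level is the least precise. Genes on the opposite strand share exon bases with all G1 genes but *Ccne1* and *Rbl1*, and whether reads there were counted by strand is not known. No batch or date is given in the labels.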
